A study of Mus musculus with 6 samples.

Results

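The 45 genes described here encode the synaptic vesicle release machinery of neurons, and their RNA was measured in retinal ganglion cells (RGCs), the projection neurons of the retina, before and after birth. Their rows were taken from the gene table of the series by symbol and made up 45 of its 24060 genes. This lookup uses no measured value, but the list of genes was chosen with earlier results of these data known. All 45 passed the filter on low counts and were among the 16449 genes tested, with at least 0.108 CPM (counts per 1000000 counts of the library) in every sample. RGCs were purified from dissociated retinas of C57BL/6 mice by immunopanning, in which macrophages are first removed on antibody-coated dishes and RGCs are then held on dishes coated with antibody against CD90 (Thy1). There were 3 samples from embryonic day 18 (E18), numbered 1, 3 and 4, and 3 from postnatal day 5 (P5), numbered 6, 8 and 9. No transgene, injury or treatment is named for either age. The ages were compared because RGCs extend axons readily before birth and lose much of this ability in the days after it. The labels do not say whether the samples came from separate litters or cultures, so p-values measure the spread between these samples only.

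Neurotransmitter is stored in synaptic vesicles, which are tethered at the active zone of the nerve terminal, primed, fused with the membrane when calcium enters, and then retrieved by endocytosis. Fusion is driven by SNARE proteins, a vesicle protein (synaptobrevin, also named VAMP) that zips together with the membrane proteins syntaxin and SNAP-25. RGCs release glutamate in the brain, onto neurons of the thalamus and the superior colliculus, so the products of these genes act far from the retina from which the RNA was taken. An RNA level in the purified cells therefore speaks of the supply of transcripts and not of synapses.

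The deposited counts on genes summed to between 81213639 and 114512853 in a sample. The summed level of 8 RGC markers was 4064 to 4895 CPM at E18 and 5333 to 6760.4 CPM at P5. None of the 8 was under 1 CPM in all samples. Nefl was the largest part of this sum, at 1636 to 2134 CPM at E18 and 2361 to 3462 CPM at P5. Of the 8, 4 were higher at P5 (Nefl, Slc17a6, Thy1 and Pou4f3) and 1 was higher at E18 (Sncg). Rbpms, Pou4f1 and Pou4f2 were not called. E18 replicates 1 and 3 stood apart by markers of other cells. The summed level of 10 amacrine cell markers was 105, 209.9 and 16.5 CPM in E18 replicates 1, 3 and 4 and 20.4 to 30.3 CPM at P5. Markers of dividing cells summed to 201, 51.2 and 12.3 CPM and those of retinal progenitors to 227, 111 and 17.6 CPM in E18 replicates 1, 3 and 4, against at most 18.6 and 14.3 CPM at P5. Of those tested, 5 amacrine, 6 of 8 dividing cell and 4 of 5 progenitor markers were called as higher at E18. The markers of endothelial cells and pericytes summed to 71.2, 63.9 and 15.3 CPM in the same E18 samples and at most 15.2 CPM at P5, and most of this was Kdr, at 69.5, 62.9 and 14.1 CPM in those E18 samples. Kdr was called as higher at E18, whereas Pecam1 and Rgs5 of that list were called as higher at P5 (log2 fold changes -1.81 and -4.36), both at levels of 0.0964 to 3.08 CPM. At E18 and P5, the sums were 20.7 to 43.4 and 15.8 to 24.4 CPM for horizontal cells, 53.7 to 71.2 and 84.6 to 116 CPM for bipolar cells, 318 to 351 and 239 to 282 CPM for Müller glia with astrocytes and 71.6 to 74.2 and 37.4 to 61.5 CPM for oligodendrocytes. Most of the glial sum was Glul, at 313 to 326 CPM at E18 and 230 to 273 CPM at P5. Prkca was the largest part of the bipolar sum, at 40.7 to 45.5 CPM at E18 and 64.8 to 92.2 CPM at P5. Photoreceptor markers summed to at most 12.6 CPM in any sample, microglial markers to at most 2.66 CPM and red blood cell markers to at most 1.81 CPM. The part of these other cells in the results below was not tested, and the counts are therefore also given with E18 replicates 1 and 3 left out. In a bulk sample, fewer cells of a type and less RNA per cell cannot be told apart.

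Most release genes that passed the test were higher at P5. Expression was significantly higher at P5 for 22 of the 45 genes (48.9%), beside 22.5% of all genes tested, and significantly higher at E18 for 3 genes (6.67%), beside 20.8% of all genes tested (edgeR quasi-likelihood test, Benjamini-Hochberg adjusted p under 0.05). The other 20 genes did not pass the test. Log2 fold changes set E18 over P5, and a negative value therefore means more RNA at P5. Means are given ± SD over the 3 samples of an age. The median over the 45 genes was -0.41, with a range from -2.29 to 0.49, against 0.00 over all genes tested. A difference of at least 2-fold was called for 10 members, all higher at P5, where 9.53% of all genes tested met that rule in that direction and 6.39% in the other. The 3 samples of each age did not overlap for 24 members that were higher at P5, beside 28.5% of all genes tested, and for 4 that were higher at E18, beside 27.6%. Together the 45 genes took 0.648%, 0.632% and 0.676% of all counts in E18 replicates 1, 3 and 4 and 0.969%, 0.865% and 1.11% in P5 replicates 6, 8 and 9.

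**Figure D1:**
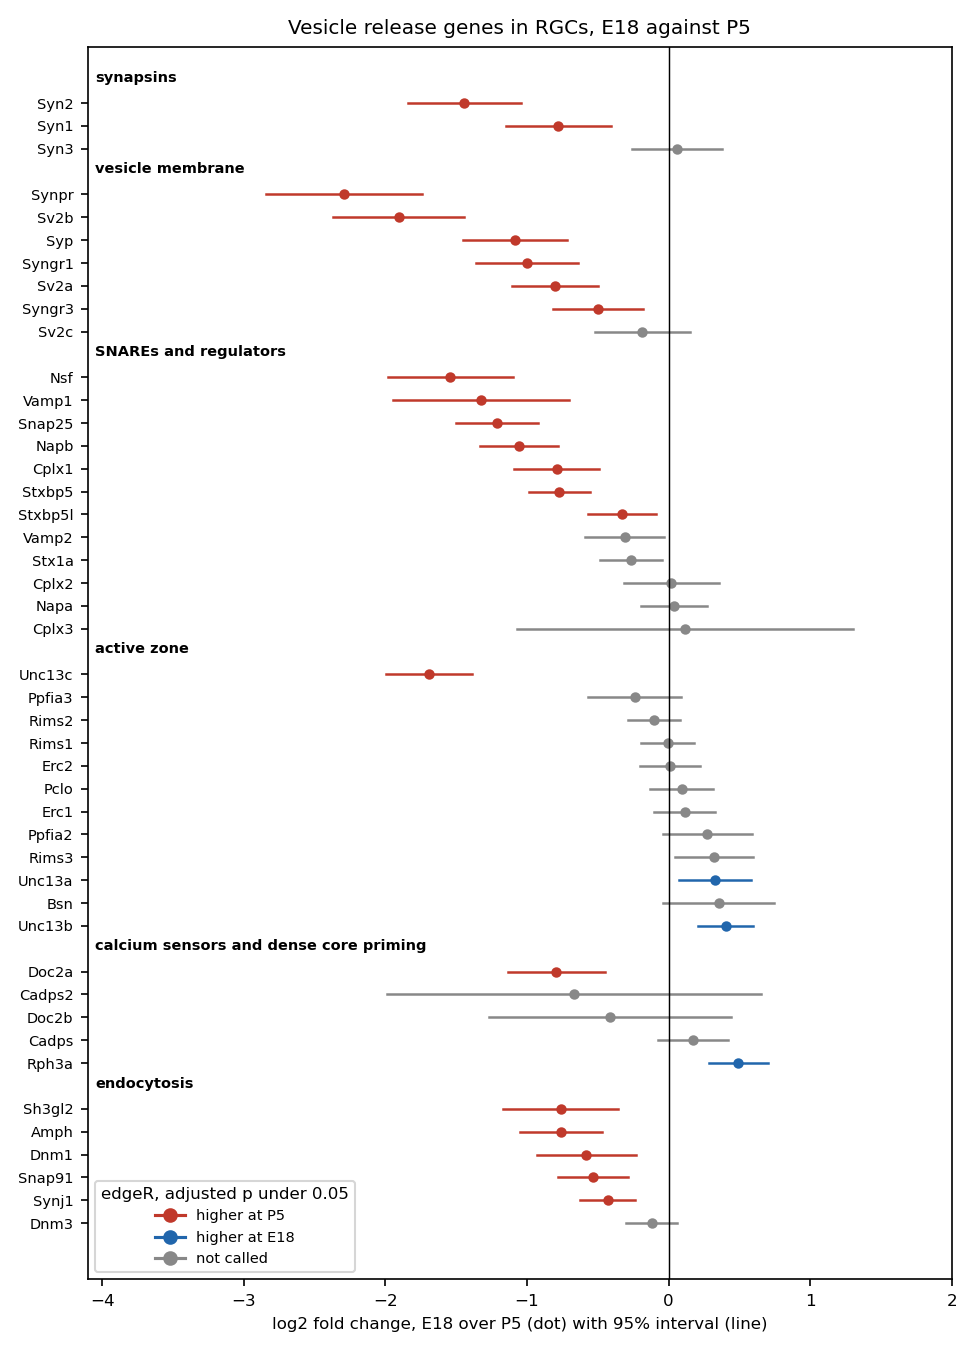
Log2 fold change of E18 over P5 (x axis) for each of the 45 genes (y axis, grouped by role), with dots for the fitted value, lines for its 95% interval and colour for the call at an adjusted p under 0.05. The 22 genes higher at P5 lie to the left, mostly in the groups of synapsins, vesicle membrane, SNAREs and endocytosis, and the active zone genes lie around 0 except Unc13c.

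The groups differed in their counts. Of the 33 genes outside the active zone, 21 (63.6%) were higher at P5 and 1 (3.03%) was higher at E18. Their median log2 fold change was -0.67. Of the 12 active zone genes, 1 (8.33%) was higher at P5, 2 (16.7%) were higher at E18 and 9 were not called, with a median of 0.10. Of all genes tested, 22.5% were higher at P5 and 20.8% at E18, so the active zone share at E18 was near that of all genes. These are counts within lists, and the difference between the lists was not tested.

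Without E18 replicates 1 and 3, which leaves 1 sample at E18 and takes the spread from the P5 samples, 10 of the 45 genes were called as higher at P5. Of these, 9 were among the 22 and the other was Cadps2, which is described with its group. In that fit no member was called as higher at E18 by edgeR's quasi-likelihood test, and 3 were higher there at an unadjusted p under 0.05. All genes called fell from 7135 of 16449 to 1633 of 17227 in the same fit. The direction was the same for all 25 called members. Their ages did not overlap, so replicate 4 alone had to lie on that side of the P5 samples. The shared direction therefore says nothing on the part of replicates 1 and 3. The median over the members was -0.44.

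Samples of 1 age also differed among themselves in a shared order. Of the 22 genes higher at P5, 21 had their highest P5 value in replicate 9, and 16 had their lowest P5 value in replicate 8. At E18, 18 of the 22 were highest in replicate 4 and 15 were lowest in replicate 3. Among all 3709 genes called as higher at P5, replicate 9 was the highest P5 sample for 62.7% and replicate 4 the highest E18 sample for 56.0%. Replicate 8 was the lowest P5 sample for 65.5% of those genes, near the 72.7% of the 22 members. Replicate 3 was the lowest E18 sample for 40.4% of all those genes and 68.2% of the 22 members. The surface marker Thy1 was at 212, 217 and 312 CPM in E18 replicates 1, 3 and 4 and 499.5, 469 and 690.1 CPM in P5 replicates 6, 8 and 9, with replicate 9 highest at P5 and replicate 4 highest at E18 as well. The glutamate transporter gene Slc17a6, which loads the vesicles of RGCs, was at 256, 275 and 316 CPM at E18 and 762, 531 and 939 CPM at P5. Nefl was also highest at P5 in replicate 9, but the other RGC markers did not share this P5 order. Rbpms, Pou4f1 and Pou4f2 were lowest at P5 in replicate 9, at 291, 483 and 184 CPM. Pou4f3 and Sncg were highest at P5 in other replicates. The part of the shared order of replicates in the results was not tested.

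**Figure D2:**
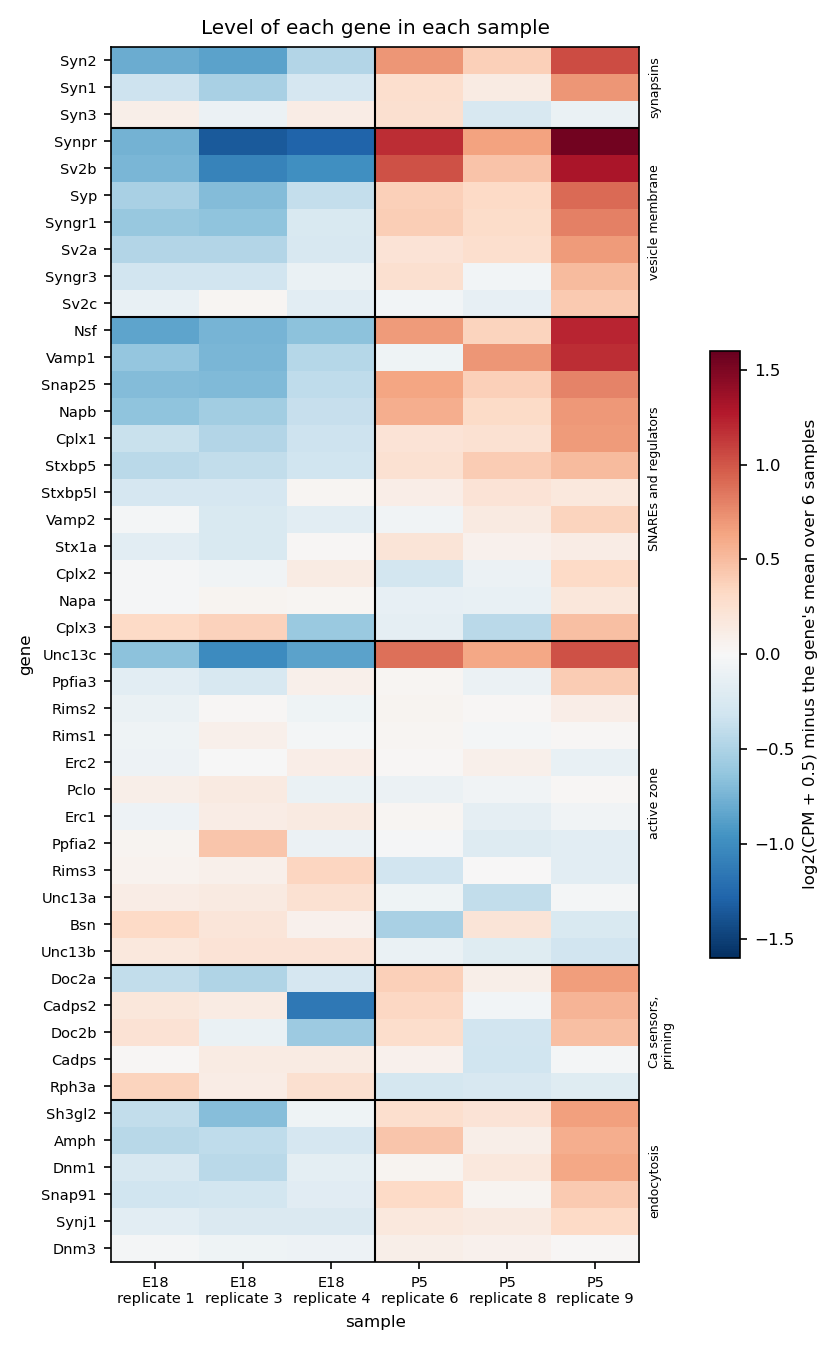
Level of each of the 45 genes (y axis, grouped by role) in each sample (x axis) as log2(CPM + 0.5) minus the mean of the gene over the 6 samples, with red above and blue below that mean. P5 replicate 9 is the reddest column for most genes higher at P5, and Unc13c stands out among the active zone genes.

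Synapsins are phosphoproteins on the outside of vesicles that hold them in a reserve pool. Syn2 (chr6:115134902-115282006, mm10, plus strand) was at 36.7, 35.4 and 46.2 CPM in E18 replicates 1, 3 and 4 and at 105, 83.7 and 133 CPM in P5 replicates 6, 8 and 9. All P5 samples lay above all E18 samples, and the level was 2.72-fold higher at P5 (log2 fold change -1.44 ± 0.18 SE, edgeR quasi-likelihood adjusted p = 6.2e-04). Syn1, a widely used marker of neurons, rose from 15.3, 13.4 and 16.0 CPM at E18 to 23.5, 21.3 and 31.9 CPM at P5 (log2 fold change -0.78 ± 0.16 SE, edgeR quasi-likelihood adjusted p = 0.00586). The highest E18 sample of Syn1 lay below its lowest P5 sample. Syn3 did not pass the test, with 57.3 ± 4.64 CPM at E18 and 54.8 ± 10.4 CPM at P5 (mean ± SD over 3 samples) and a 95% interval of -0.26 to 0.38 for its log2 fold change. Its exons share 1733 bases on the opposite strand with those of Timp3, which averaged 8.29 CPM, and without a stated strand setting reads of the overlap cannot be told apart.

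Of the 7 genes for integral membrane proteins of the vesicle, 6 (85.7%) were higher at P5, beside 22.5% of all genes tested. Of these 6, 4 differed by at least 2-fold, and their log2 fold changes ran from -2.29 to -0.50 over the 6. Synpr (chr14:13284780-13616340, mm10, plus strand) encodes synaptoporin, a relative of synaptophysin. It was at 39.8, 26.5 and 27.7 CPM at E18 and 155, 106 and 199 CPM at P5. This was the largest difference of the 45 genes, 4.90-fold higher at P5 (log2 fold change -2.29 ± 0.24 SE, edgeR quasi-likelihood adjusted p = 3.6e-04). Sv2b encodes a glycoprotein of the vesicle membrane that takes part in priming. It rose from 41.5, 32.7 and 35.0 CPM in E18 replicates 1, 3 and 4 to 141, 95.4 and 173 CPM in P5 replicates 6, 8 and 9, which was 3.75-fold (log2 fold change -1.91 ± 0.20 SE, edgeR quasi-likelihood adjusted p = 3.7e-04). For both genes every P5 sample lay above every E18 sample.

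Syp, which encodes synaptophysin and is the usual histological marker of terminals, was at 205, 182 and 225 CPM at E18 and 381, 365 and 548 CPM at P5 (log2 fold change -1.08 ± 0.16 SE, edgeR quasi-likelihood adjusted p = 0.00138). Sv2a, the form found in nearly all synapses, averaged 288 ± 24.7 CPM at E18 and 502 ± 91.5 CPM at P5 (SD of 3 samples, log2 fold change -0.80 ± 0.13 SE, edgeR quasi-likelihood adjusted p = 0.00223). Syngr1, a synaptogyrin of the synaptophysin superfamily, averaged 85.7 ± 13.6 CPM and 171 ± 33.4 CPM (95% interval of its log2 fold change -1.36 to -0.64, edgeR quasi-likelihood adjusted p = 0.00179). Syngr3 was called on a narrower margin. It was at 79.5, 79.7 and 91.0 CPM at E18 and 118, 95.3 and 141 CPM at P5 (log2 fold change -0.50 ± 0.14 SE, edgeR quasi-likelihood adjusted p = 0.0208), and the call was lost without E18 replicate 1, E18 replicate 3, P5 replicate 6 or P5 replicate 9, with edgeR adjusted p between 0.0557 and 0.0775. Sv2c, the third SV2 gene, did not pass the test (log2 fold change -0.19, 95% interval -0.52 to 0.15).

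Among the 12 SNAREs and their regulators, 7 (58.3%) were higher at P5, beside 22.5% of all genes tested, and 5 were not called. Snap25 (chr2:136713453-136782428, mm10, plus strand) encodes the plasma membrane SNARE that gives a pair of helices to the fusion complex. It was at 817, 812 and 999 CPM at E18 and 2050.0, 1733 and 2298 CPM at P5, 2.31-fold higher (log2 fold change -1.21 ± 0.13 SE, edgeR quasi-likelihood adjusted p = 3.6e-04). Per length of exon it was the most abundant of the 45 genes at both ages. Nsf encodes the ATPase that pulls used SNARE complexes apart, and rose from 130.3, 139.6 and 149 CPM to 375, 299.5 and 544 CPM (log2 fold change -1.54 ± 0.19 SE, edgeR quasi-likelihood adjusted p = 7.2e-04). Its P5 samples were themselves spread, with replicate 9 well above replicate 8, yet all lay above E18.

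Of the adaptor genes among the 45 that recruit NSF to the SNARE complex, Napb passed the test and Napa did not. Napb, the neuronal beta-SNAP, averaged 404 ± 39.8 CPM at E18 and 840.5 ± 114 CPM at P5 (SD of 3 samples, log2 fold change -1.06 ± 0.12 SE, edgeR quasi-likelihood adjusted p = 4.9e-04). Napa, the alpha-SNAP used by all cells, averaged 120.4 ± 2.95 CPM and 117 ± 14.4 CPM and did not pass the test (95% interval of its log2 fold change -0.20 to 0.27). Napg, the related gamma-SNAP gene, which is outside the 45, was higher at P5 (log2 fold change -0.81 ± 0.11 SE, edgeR quasi-likelihood adjusted p = 0.00107), and it was added here after its value was seen.

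Vamp1 and Vamp2 encode the vesicle SNAREs synaptobrevin 1 and 2. Vamp1 was at 13.7, 12.6 and 15.4 CPM at E18 and 20.3, 35.1 and 49.1 CPM at P5 (log2 fold change -1.32 ± 0.27 SE, edgeR quasi-likelihood adjusted p = 0.00547). P5 replicate 6 lay closest to the E18 samples, and no P5 sample overlapped with them. Vamp2 was at 49.6, 42.8 and 45.4 CPM at E18 and 49.1, 56.5 and 65.2 CPM at P5, where P5 replicate 6 lay below E18 replicate 1. It did not pass the test (log2 fold change -0.31 ± 0.12 SE, edgeR quasi-likelihood adjusted p = 0.0666) but did so without P5 replicate 6 (edgeR adjusted p = 0.0337). Stx1a, the syntaxin of the plasma membrane, was at 122, 115 and 138 CPM at E18 and 159, 144 and 149 CPM at P5. Its ages did not overlap, but the difference was just short of the threshold (log2 fold change -0.27 ± 0.10 SE, edgeR quasi-likelihood adjusted p = 0.0526), and it passed without E18 replicate 4 (edgeR adjusted p = 0.0379) or P5 replicate 8 (edgeR adjusted p = 0.0250).

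Complexins clamp the partly zipped SNARE complex until calcium arrives. Cplx1 averaged 78.6 ± 4.08 CPM at E18 and 136 ± 25.7 CPM at P5 (log2 fold change -0.79 ± 0.13 SE, edgeR quasi-likelihood adjusted p = 0.00227), whereas Cplx2 averaged 269 ± 19.1 CPM and 265 ± 58.6 CPM and was not called (log2 fold change 0.02, 95% interval -0.32 to 0.36). Cplx3, the complexin of retinal ribbon synapses, was near the floor, at 1.04, 1.10 and 0.320 CPM at E18 and 0.620, 0.416 and 1.23 CPM at P5. The tomosyns, which compete with synaptobrevin for syntaxin and SNAP-25, were both higher at P5. Stxbp5 averaged 74.9 ± 2.81 CPM at E18 and 128 ± 11.7 CPM at P5 (log2 fold change -0.77 ± 0.10 SE, edgeR quasi-likelihood adjusted p = 6.8e-04). Stxbp5l was at 119, 119 and 146 CPM at E18 and 155, 167 and 161 CPM at P5 (log2 fold change -0.33 ± 0.10 SE, edgeR quasi-likelihood adjusted p = 0.0331), with E18 replicate 4 close below the P5 samples. Its call was lost without E18 replicate 1, E18 replicate 3 or P5 replicate 9, with edgeR adjusted p between 0.0664 and 0.140.

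The active zone is the protein lattice that holds vesicles beside calcium channels. None of the 9 genes of the group other than the Munc13 genes passed the test. Rims1 and Rims2, which bind calcium channels and the vesicle protein Rab3, had log2 fold changes of -0.01 (95% interval -0.20 to 0.18) and -0.10 (-0.29 to 0.08). The large scaffold genes Bsn and Pclo, the ELKS genes Erc1 and Erc2 and the liprin-alpha genes Ppfia2 and Ppfia3 were not called either, with log2 fold changes from -0.24 to 0.35. For Rims1, Rims2, Erc1, Erc2 and Pclo the 95% intervals lay between -0.29 and 0.33, and a change of 2-fold was outside all of them. Bsn was at 64.1, 59.0 and 53.9 CPM at E18 and 35.7, 59.3 and 43.4 CPM at P5 (log2 fold change 0.35 ± 0.17 SE, edgeR quasi-likelihood adjusted p = 0.128). P5 replicate 8 lay inside the E18 range, and without it Bsn was called as higher at E18 (log2 fold change 0.56, edgeR adjusted p = 0.00728). Rims3, a short RIM without the Rab3-binding part, was at 39.2, 39.6 and 47.5 CPM at E18 and 30.2, 37.6 and 33.3 CPM at P5 (log2 fold change 0.32 ± 0.12 SE, edgeR quasi-likelihood adjusted p = 0.0615), and it too was called as higher at E18 without P5 replicate 8 (edgeR adjusted p = 0.0202).

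The Munc13 proteins, which open syntaxin and make docked vesicles ready for fusion, moved in opposite directions. Unc13c (chr9:73479422-73968966, mm10, minus strand) was at 47.0, 36.7 and 40.9 CPM in E18 replicates 1, 3 and 4 and 137, 115 and 151 CPM in P5 replicates 6, 8 and 9. It was 3.23-fold higher at P5 (log2 fold change -1.69 ± 0.13 SE, edgeR quasi-likelihood adjusted p = 1.3e-04) and was the only active zone gene of the 12 called in that direction. Unc13b was at 188, 193 and 193 CPM at E18 and 155, 145 and 135 CPM at P5, 1.32-fold higher at E18 (log2 fold change 0.40 ± 0.09 SE, edgeR quasi-likelihood adjusted p = 0.00636). Unc13a, the main Munc13 of glutamatergic terminals, was at 205, 209 and 223 CPM at E18 and 179.8, 143 and 184 CPM at P5, 1.26-fold higher at E18 (log2 fold change 0.33 ± 0.11 SE, edgeR quasi-likelihood adjusted p = 0.0408). The ages did not overlap for any of the 3, but the call of Unc13a was lost without E18 replicate 1, 3 or 4 or P5 replicate 6 (edgeR adjusted p 0.0685 to 0.115). Its exons share 495 bases on the opposite strand with those of Colgalt1, so reads of the overlap cannot be told apart.

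Doc2 proteins and rabphilin bind calcium through C2 domains, and CAPS proteins prime dense core vesicles. Rph3a (chr5:120940499-121010092, mm10, minus strand), which encodes rabphilin-3A, was at 207, 175 and 193 CPM at E18 and 132, 135 and 141 CPM at P5. All E18 samples lay above all P5 samples, and its difference, 1.41-fold, was the largest of the 3 genes higher at E18 (log2 fold change 0.49 ± 0.09 SE, edgeR quasi-likelihood adjusted p = 0.00347). Doc2a, a high-affinity calcium sensor of spontaneous release, was at 20.3, 19.2 and 22.2 CPM at E18 and 35.1, 28.9 and 43.0 CPM at P5 (log2 fold change -0.79 ± 0.15 SE, edgeR quasi-likelihood adjusted p = 0.00382). Its exons share 1103 bases on the opposite strand with those of Ino80e, which averaged 16.9 CPM, and reads of the overlap cannot be told apart. Cadps, at 480.4 ± 20.1 CPM at E18 and 426 ± 57.0 CPM at P5, was not called (log2 fold change 0.17, 95% interval -0.07 to 0.42).

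Doc2b and Cadps2 were at the lower end of the set. Doc2b was at 1.58, 1.14 and 0.685 CPM at E18 and 1.65, 0.924 and 1.97 CPM at P5. Cadps2 was at 1.18, 1.12 and 0.166 CPM at E18 and 1.35, 0.935 and 1.65 CPM at P5, so that E18 replicate 4 was far below the other 5 samples. Neither was called with all samples. Cadps2 was called as higher at P5 when replicate 4 alone stood for E18 (log2 fold change -2.96, edgeR adjusted p = 0.0131). Cplx3, Doc2b and Cadps2 were all lowest of the E18 samples in replicate 4, in which the amacrine and progenitor marker sums were lowest too, and the part of other cells in this was not tested.

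Endocytosis retrieves the vesicle membrane, and 5 of its 6 genes (83.3%) were higher at P5, beside 22.5% of all genes tested. The median log2 fold change of the 6 was -0.56, and no difference reached 2-fold. Sh3gl2 encodes endophilin A1, which bends the neck of the budding vesicle and recruits synaptojanin. It was at 27.1, 22.0 and 34.2 CPM at E18 and 43.3, 41.6 and 56.4 CPM at P5 (log2 fold change -0.76 ± 0.18 SE, edgeR quasi-likelihood adjusted p = 0.00947). Amph, which encodes the adaptor amphiphysin, was at 161, 165 and 181 CPM at E18 and 298, 233 and 326 CPM at P5 (log2 fold change -0.76 ± 0.13 SE, edgeR quasi-likelihood adjusted p = 0.00231). Dnm1 encodes the dynamin that cuts the neck in neurons, and was at 84.3, 74.7 and 90.3 CPM at E18 and 104, 113 and 155 CPM at P5 (log2 fold change -0.58 ± 0.15 SE, edgeR quasi-likelihood adjusted p = 0.0161).

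The samples of the ages did not overlap for any of the 6 endocytosis genes, all higher at P5, beside 28.5% of all genes tested in that direction. The call of Dnm1 was lost without E18 replicate 3 (log2 fold change -0.50, edgeR adjusted p = 0.0674). Synj1, the phosphatase that sheds the clathrin coat, averaged 134 ± 3.12 CPM at E18 and 179.9 ± 12.1 CPM at P5 (log2 fold change -0.43 ± 0.09 SE, edgeR quasi-likelihood adjusted p = 0.00479). Snap91, the clathrin assembly protein AP180 of neurons, was at 356, 361 and 390.3 CPM at E18 and 554, 457 and 592 CPM at P5 (log2 fold change -0.53 ± 0.11 SE, edgeR quasi-likelihood adjusted p = 0.00528). Dnm3 was not called, at 97.8 ± 1.93 CPM and 106 ± 3.14 CPM (95% interval of its log2 fold change -0.30 to 0.06).

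Many of these genes belong to families of related proteins, and the ratio of 2 related genes within each sample was compared between the ages. Of 26 pairs in 16 families, 18 had ratios that did not overlap between the ages, and 7 of these moved by at least 2-fold. Of all genes tested singly, 56.1% did not overlap between the ages. The share among other gene pairs was not computed, so the count of 18 cannot be called high or low. With 3 samples against 3, the smallest p that a two-sided exact permutation test can give is 0.1, and all 18 reached it (0.144 after Benjamini-Hochberg adjustment over the 26 pairs), so no pair could pass 0.05. The mean log2 ratio of Unc13b to Unc13c was 2.20 ± 0.20 at E18 and 0.12 ± 0.25 at P5 (SD over 3 samples), and that of Unc13a to Unc13c was 2.34 ± 0.20 and 0.33 ± 0.05. The ratio of Unc13a to Unc13b overlapped between the ages. The log2 ratio of Sv2b to Sv2c was -0.55 ± 0.25 at E18 and 1.14 ± 0.24 at P5, and that of Syn2 to Syn3 was -0.54 ± 0.15 and 0.95 ± 0.36. These ratios are not divided by length, so their sign does not say which gene of a pair was more abundant. The other 3 pairs that moved by at least 2-fold were Syp with Synpr, Napa with Napb and Sv2a with Sv2b, which differed by 1.19, 1.09 and 1.07 between the age means on the log2 scale.

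**Figure D3:**
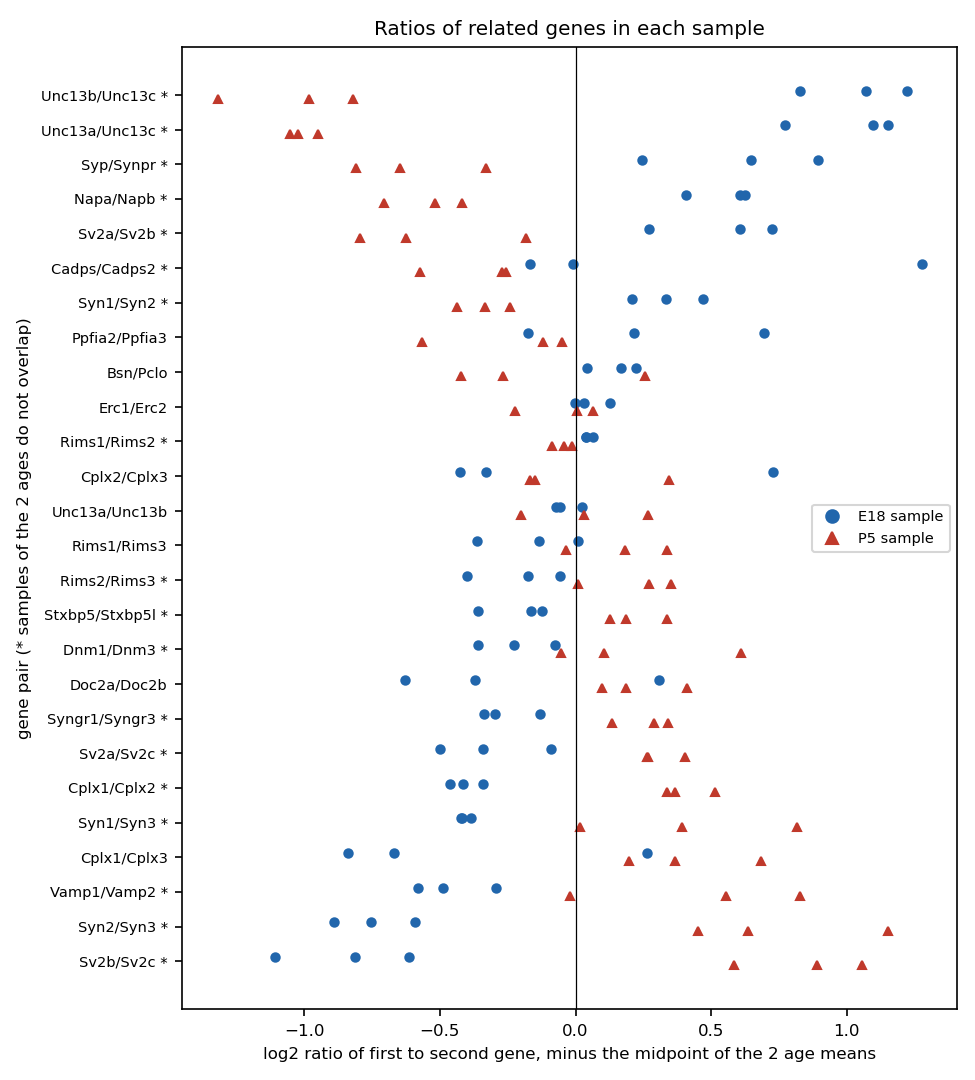
Log2 ratio of 2 related genes in each sample (x axis, CPM + 0.5, centred on the midpoint of the means of the ages) for 26 pairs (y axis), with circles for the 3 E18 samples, triangles for the 3 P5 samples and an asterisk where the ages do not overlap. The pairs with Unc13c lie farthest apart, and Unc13a against Unc13b overlaps.

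The same CPM values were also written as the share of each gene in its family, after division by the length of the exons in kilobases. These shares restate the ratios and are not a separate observation. Unc13c made up 17.9, 14.3 and 15.1% of the Munc13 transcripts in E18 replicates 1, 3 and 4 and 42.6, 42.4 and 45.5% in P5 replicates 6, 8 and 9. The share of Unc13a was 56.1% ± 1.53 at E18 and 38.1% ± 1.12 at P5 (SD over 3 samples). Syn2 made up 37.8% ± 2.31 of the synapsins at E18 and 55.3% ± 2.09 at P5, while the share of Syn3 was 31.6% ± 1.37 and 16.5% ± 3.48. Among the complexins, Cplx2 had the larger share at E18, 60.1% ± 1.10, and Cplx1 the larger at P5, 53.6% ± 1.62. Napb went from 64.2% ± 1.90 to 79.3% ± 1.65 of its pair with Napa, Synpr from 7.84% ± 1.70 to 16.3% ± 2.26 of its pair with Syp, and Sv2b from 6.07% ± 0.945 to 12.4% ± 2.26 of the SV2 genes. With the length of the longest transcript in place of all exons, Unc13c made up 12.3% at E18 and 36.7% at P5. By that length Syn3 had 44.8% and Syn2 38.1% of the synapsins at E18, against 24.7% and 58.7% at P5. Which synapsin led at E18 therefore depends on the length used. The shares of Rims1 were 42.7% ± 0.941 and 42.6% ± 0.906 of the sum of Rims1, Rims2 and Rims3, and those of Erc2 68.4% ± 1.02 and 70.0% ± 2.19 of its pair.

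Per length, the levels of the 45 genes spanned a wide range. Snap25 was highest, at 129 CPM per kb at E18 and 298 CPM per kb at P5. Napb followed at P5 with 119 CPM per kb (57.3 at E18), then Sv2a with 108 (62.1) and Syp with 82.7 (39.1). With the length of the longest transcript, Syp came before Sv2a at P5, at 152 against 116 CPM per kb. The P5 ranges of Napb and Sv2a overlapped, although Napb was the higher within each P5 sample, and their order was not tested. Cadps2, Cplx3 and Doc2b were lowest at both ages, at no more than 0.347 CPM per kb on average. In rank, Synpr went from place 40 of 45 at E18 to place 24 at P5 and Sv2b from place 36 to 23, while Rph3a went from place 6 to 15. By the longest transcript, Synpr went from place 34 to 18 and Snap25 was again first at both ages.

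**Figure D4:**
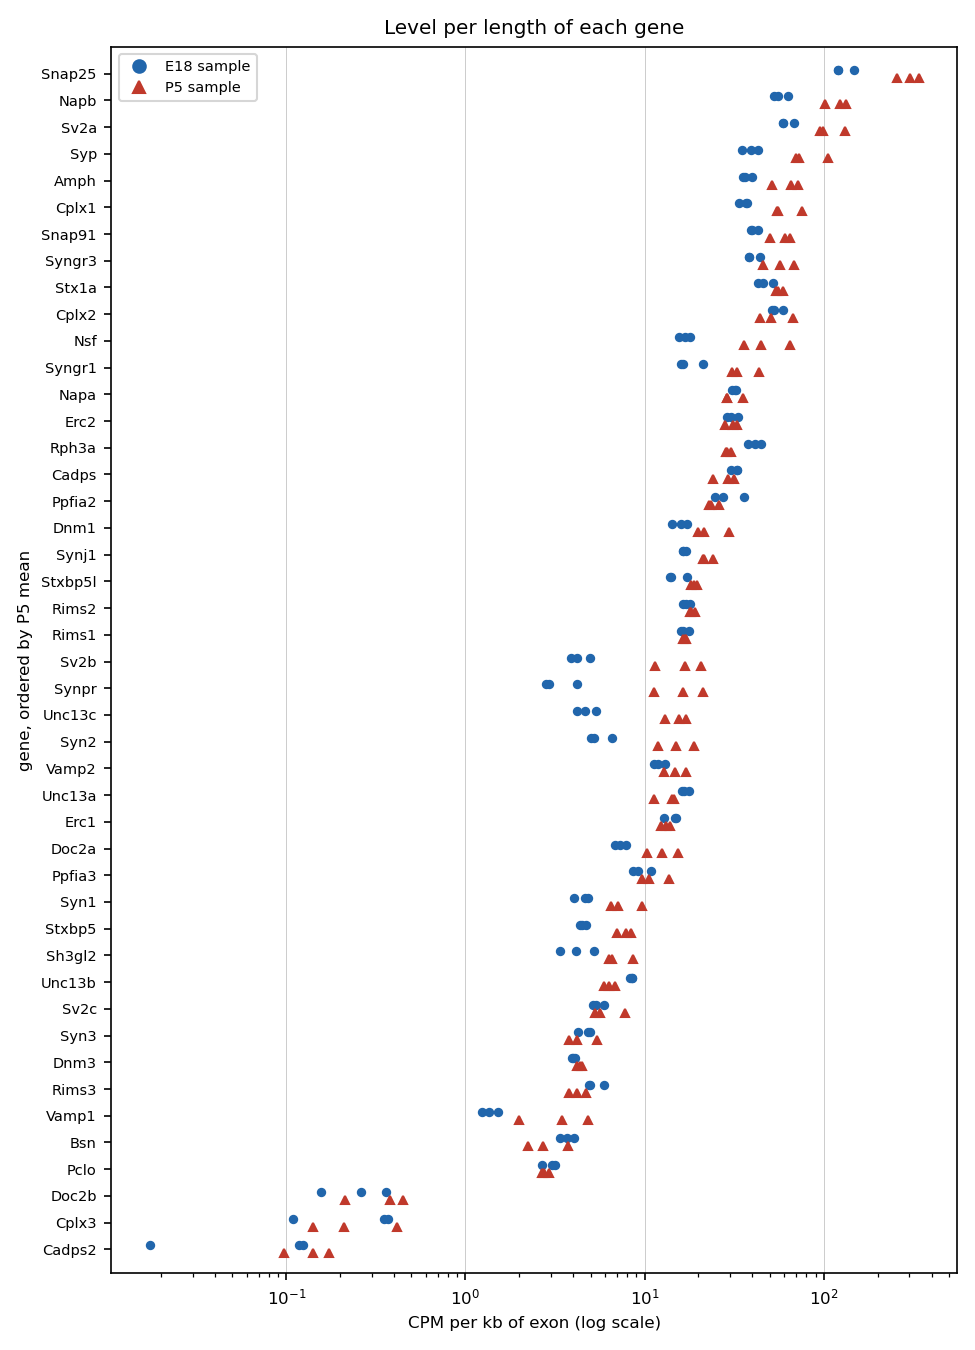
Level of each gene (y axis, ordered by its P5 mean) in CPM per kb of exon on a log axis (x axis), with circles for the 3 E18 samples and triangles for the 3 P5 samples. Snap25 is at the top with P5 samples around 298 CPM per kb, and Doc2b, Cplx3 and Cadps2 lie apart at the bottom.

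The study also examined REST, a repressor that keeps neuronal genes silent by binding a long sequence made of 2 parts. The promoters of the members, from 250 bases before to 50 bases after the RefSeq start (GRCm38.p6, the build named mm10), were therefore searched on both strands for the left part, TTCAGCACC, and the right part, GGACAGC. A promoter was given for 38 of the 45 genes. The left part was found in 3 of these, Unc13a, Syn1 and Ppfia3, and in 0.433% of the 27025 genes with a promoter. The right part was found in Rph3a and Unc13a, and in 7.59% of all genes with a promoter. The promoter of Unc13a held both parts, as did those of 14 of the 27025 genes. The sequences with the left part are given because they place the same 9 letters at genes with different age patterns. Each is written on the strand of its gene, with the parts found in capitals. Those of Unc13a lie after the start, read in the opposite direction and are 8 bases apart, and those of Syn1 and Ppfia3 lie before the start.
Unc13a (chr8:71671724-71671753, minus strand): ggcGCTGTCCgcgcccccGGTGCTGAAgcg
Syn1 (chrX:20921132-20921160, minus strand): cactgtcggaTTCAGCACCgcggtcagag
Ppfia3 (chr7:45367047-45367075, minus strand): tcattggccaTTCAGCACCgtccgtcagt
Unc13a was higher at E18, Syn1 was higher at P5 and Ppfia3 was not called (log2 fold change -0.24, 95% interval -0.57 to 0.09). A match describes these letters in this window and is not a binding site.

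Other genes of the vesicle cycle, 67 that are no members, were read in the same fit, and 66 were tested. The SNARE gene Vamp7 had no count in any sample. Of the 66, 26 (39.4%) were higher at P5 and 7 (10.6%) were higher at E18, beside 22.5% and 20.8% of all genes tested, with a median log2 fold change of -0.22. Among those with a mean of at least 10 CPM, the largest differences toward P5 were in Rims4, a short RIM, at 8.10, 6.73 and 8.24 CPM at E18 and 17.0, 21.0 and 25.0 CPM at P5 (log2 fold change -1.45 ± 0.17 SE, edgeR adjusted p = 4.8e-04), in Prrt2, which binds SNAREs (log2 fold change -1.39, edgeR adjusted p = 2.3e-04), and in Pacsin1, the neuronal syndapin of endocytosis (log2 fold change -1.17, edgeR adjusted p = 0.00125). Toward E18 they were in Vamp3, the cellubrevin of general membrane traffic, at 34.7, 32.5 and 29.5 CPM at E18 and 17.6, 19.9 and 14.0 CPM at P5 (log2 fold change 0.91 ± 0.14 SE, edgeR adjusted p = 0.00171), in Stxbp2, a Munc18 of secretion outside neurons (log2 fold change 0.68, edgeR adjusted p = 0.00347), and in the liprin gene Ppfia1 (log2 fold change 0.60, edgeR adjusted p = 0.00872). Without E18 replicates 1 and 3, 3 of the 66 were called as higher at P5.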

How the data were processed

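RNA was sequenced from 3 E18 and 3 P5 samples of immunopanned RGCs, grouped by the age in their labels. One E18 column name carries the numbers 1, 2 and 5, and it was matched to replicate 1, the only sample title with any of them. Per the labels and methods, libraries were depleted of ribosomal RNA (the labels also name polyA RNA) and read as 100-base paired ends. The authors aligned reads to mm10 with STAR 2.4.0, used HT-seq 0.6.1 to count reads per RefSeq gene, and deposited raw counts per gene. CASAVA 1.8.2 and edgeR appear in the submitters' processing notes. The strand setting and the treatment of multi-mapped reads are not given in the sources used here, so counts of overlapping genes are uncertain. The authors also deposited normalized counts, a signal scaled for library size, log2 fold changes, p-values with false discovery rates and another column that ranks genes, and none of these was used.

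A chi-square comparison of counts between replicates gave 30.5 to 141 per degree of freedom, so no sample was the same library counted again. It cannot tell whether libraries came from a shared pool or litter. Counts were normalized by TMM, filtered by filterByExpr (minimum count 10) and tested in edgeR 4.0.16 (R 4.3.3) by quasi-likelihood, with Benjamini-Hochberg adjustment over 16449 genes and a threshold of 0.05. The test was checked on simulated counts. CPM values use TMM-scaled library sizes, at depths of 81213639 to 114512853 counts. Intervals and SE come from the quasi-likelihood fit, in which the spread of a gene between samples is moderated by that of all genes tested. Ratios used a pseudocount of 0.5 CPM. Lengths and coordinates are from the GENCODE annotation of mm10, and promoters from RefSeq. Alternatives were DESeq2 1.42.0, edgeR's exact test, other normalizations and filters, other pseudocounts and lengths, and leaving out each sample in turn. The fit without E18 replicates 1 and 3 was added after seeing the data.

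The 45 genes, the other vesicle genes, the markers and the motifs were chosen with earlier results of these data known, and lists are described by counts and medians without a set test. Values in every sample are given for genes higher at E18, for the 3 called genes with the largest change in each role group and for genes whose call changed when 1 sample was left out. Other vesicle genes are named for the 3 largest called changes in each direction with a mean of at least 10 CPM. Protein sequences were not used here. The values of some single genes are left out and not reported here.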

Additional observations from a re-analysis of the deposited data

How the results depend on the processing

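Of the 25 members called, 21 were called in each of the 6 fits that left out 1 sample, among them 19 of the 22 higher at P5. The median log2 fold change of the members ranged from -0.48 to -0.33 in those fits. The number of members higher at P5 ranged from 19 to 23 and that of members higher at E18 from 2 to 5, with 5 without P5 replicate 8. Of the other vesicle genes, 19 to 33 were higher at P5 and 4 to 9 at E18, with 4 without E18 replicate 1 or without P5 replicate 9. Across members and settings, 589 fold changes kept their side of the threshold, of which 21 in 8 members that were not called had the other sign. The call was lost by 29 in 16 members and gained by 12 in 5 members. None that was called changed direction. For the 25 members called with all samples, whose ages did not overlap, leaving out samples could not change it. Stx1a was also called by DESeq2 (adjusted p = 0.0373), edgeR's exact test, library totals and a CPM filter. Rims3 was also called by DESeq2 (adjusted p = 0.0380) and with upper-quartile normalization, and Unc13a lost its call with library totals (edgeR adjusted p = 0.0511). Without E18 replicates 1 and 3, edgeR's quasi-likelihood test called 10 members as higher at P5 and 0 as higher at E18, where 3 were at an unadjusted p under 0.05, and it called 3 other vesicle genes as higher at P5 and 0 at E18, where 3 were at an unadjusted p under 0.05. That fit holds 1 E18 sample, which is assumed to vary like the P5 samples, and DESeq2 was not run on it. The median P5 level per length over the 45 genes was 16.3 CPM per kb with all exons and 25.8 CPM per kb with the longest transcript. With a pseudocount of 2 in place of 0.5 CPM, 20 gene pairs in place of 18 did not overlap. No paired analysis was possible because the ages share no replicate number. At these depths the spread between samples, and not counting error, limits most members, but Cplx3, Doc2b and Cadps2 were under 2 CPM on average.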
